A study of Mus musculus with 12 samples.

Results

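Solute carriers are the genes of the Slc families, which encode membrane proteins that move amino acids, sugars, nucleosides, metals, ions and metabolites across the plasma membrane and the membranes of organelles. They were followed in mouse neutrophils by their deposited read counts. The members are the protein-coding genes of the GRCm38 annotation whose symbol is Slc and a digit, with more than 1 CPM (counts scaled by sequencing depth) in at least 3 of the 12 libraries. The glucose and lactate carriers Slc2a1, Slc2a3 and Slc16a3, the iron and metal carriers Slc11a1 and Slc40a1, and a symbol ending in os were left out. Of 365 such genes in the table, 165 passed the filter on low values, 200 did not, and 122 of these had no count in any library. Just under the limit were Slc50a1, Slc36a4 and Slc6a4, with 0.991, 0.991 and 0.994 CPM in their third-highest library, and just above it were Slc35f4, Slc52a2 and Slc9a3, with 1.07, 1.12 and 1.12 CPM. The members passed in unequal shares, with 24 of 54 amino acid carriers, 4 of 8 nucleoside carriers, 29 of 47 mitochondrial Slc25 carriers, 14 of 24 zinc carriers, 29 of 62 ion carriers, 20 of 27 nucleotide sugar carriers, 10 of 27 carriers of sugars and polyols and 35 of 116 with other substrates.

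The animals were male C57BL/6N mice of 8 to 10 weeks. Control splenic neutrophils came from the spleens of untreated mice (n = 3 libraries), and 24-hour neutrophils (n = 4) and 72-hour neutrophils (n = 5) came from livers taken 24 or 72 hours after 1 intraperitoneal injection of carbon tetrachloride (CCl4), a solvent that kills hepatocytes, at 1 mL per kg in corn oil. All cells were enriched with anti-Ly6G microbeads and sorted as CD45+ CD11b+ Ly6Ghi Ly6Cint. Livers were minced, digested with collagenase D and run on a Percoll gradient, whereas spleens were dissociated mechanically and filtered. The controls thus differ from both other groups in organ, tissue processing and injection as well as in injury, so these cannot be told apart. Both liver groups were set against the same 3 spleen libraries.

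The 12 libraries held 1267089 to 3017403 reads on genes, and 96.8% to 97.3% of the uniquely aligned reads lay on no gene. The kit keeps the strand of the RNA and the strand option of the counting was not given in the sources used here, so which strand the counted reads came from was not tested. If they were counted on the strand opposite to the transcripts, a level, a fold change or a count of 0 given here does not measure the RNA of the gene named, and this limit holds for every value below. Members that share exon bases with a gene on the opposite strand (54 of 165, 32.7%, against 39.9% of the genes tested) had a median of 16.4 counts per library, and the other members had 6.08. The counts are shallow for this family, since 91 of the 165 members (55.2%) averaged fewer than 10 counts, against 44.1% of the 12488 genes tested. In 72-hour libraries 2 and 3 the unaligned reads came to 1.91% and 1.98%, against 49.6% to 50.7% in the other 10. Of 11 listed genes of immature neutrophils 8 were tested and 6 were called lower in each liver group. Of all genes tested, 4.4% were called lower at 24 hours and 2.71% at 72 hours. Without the proliferation gene Mki67, which was not called, the other 10 summed to 660 to 4409 normalized CPM in the spleen, 41 to 180 at 24 hours and 49.5 to 74.3 at 72 hours. Mki67 itself did not follow them, with 674, 702 and 2008 normalized CPM in spleen libraries 1 to 3. It had 805 to 1263 normalized CPM at 24 hours and 942 to 1485 at 72 hours. The 12 listed genes of mature neutrophils summed to 2046 to 7842, 1219 to 2951 and 2197 to 2895 normalized CPM, with spleen library 3 the lowest of the spleen. The 12 hepatocyte genes summed to 2.32 to 6.11, 14.9 to 20.2 and 4.54 to 32.8 normalized CPM, with Ttr and Cps1 at 0 counts in all libraries. In these bulk samples fewer cells of a type and less RNA per cell cannot be told apart.

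Some solute carriers work alone and others need a partner chain. The cystine carrier pairs Slc7a11 with the heavy chain Slc3a2, zinc importers of the Slc39 family are opposed by exporters of the Slc30 family, and Slc25 proteins carry metabolites across the inner mitochondrial membrane. In neutrophils, cystine uptake feeds the synthesis of glutathione, which buffers the oxidants that these cells produce.

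Few of the 165 solute carriers were called different between the groups. Of the 165, 55.2% averaged fewer than 10 counts, against 44.1% of all genes tested, so few calls do not show that few differed. A gene was called when the Benjamini-Hochberg adjusted p of edgeR's quasi-likelihood test was under 0.05 and the log2 fold change was at least 0.5 in either direction. At 24 hours 10 of 165 members were called against the spleen (6.06%), where 9.75% of all genes tested were called. Of these, 4 rose, where 5.35% of all genes were called higher, and 6 fell, where 4.4% were called lower. At 72 hours 7 members were called (4.24%, against 5.33% of all genes), of which 5 rose and 2 fell, beside 2.63% and 2.71% of all genes. Between 72-hour and 24-hour neutrophils 2 members were called (1.21%, against 4.49% of all genes), 1 higher and 1 lower, beside 1.65% and 2.84% of all genes. At an unadjusted p under 0.05 there were 39, 31 and 24 of the 165 members in the 3 comparisons, beside 3267, 2134 and 2616 of the 12488 genes tested. The median log2 fold change over the members was -0.23 at 24 hours and -0.03 at 72 hours, and over all genes tested it was -0.23 and -0.02. Without spleen library 1 the counts of called members were 3, 4 and 0, and the 3 that kept their call at 24 hours were Slc7a11, Slc35e2 and Slc35g2. Without 72-hour libraries 2 and 3 the counts were 10, 3 and 0. The share of all genes called in these smaller fits is not given here, so the lower counts cannot be read as particular to the carriers.

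**Figure D1:**
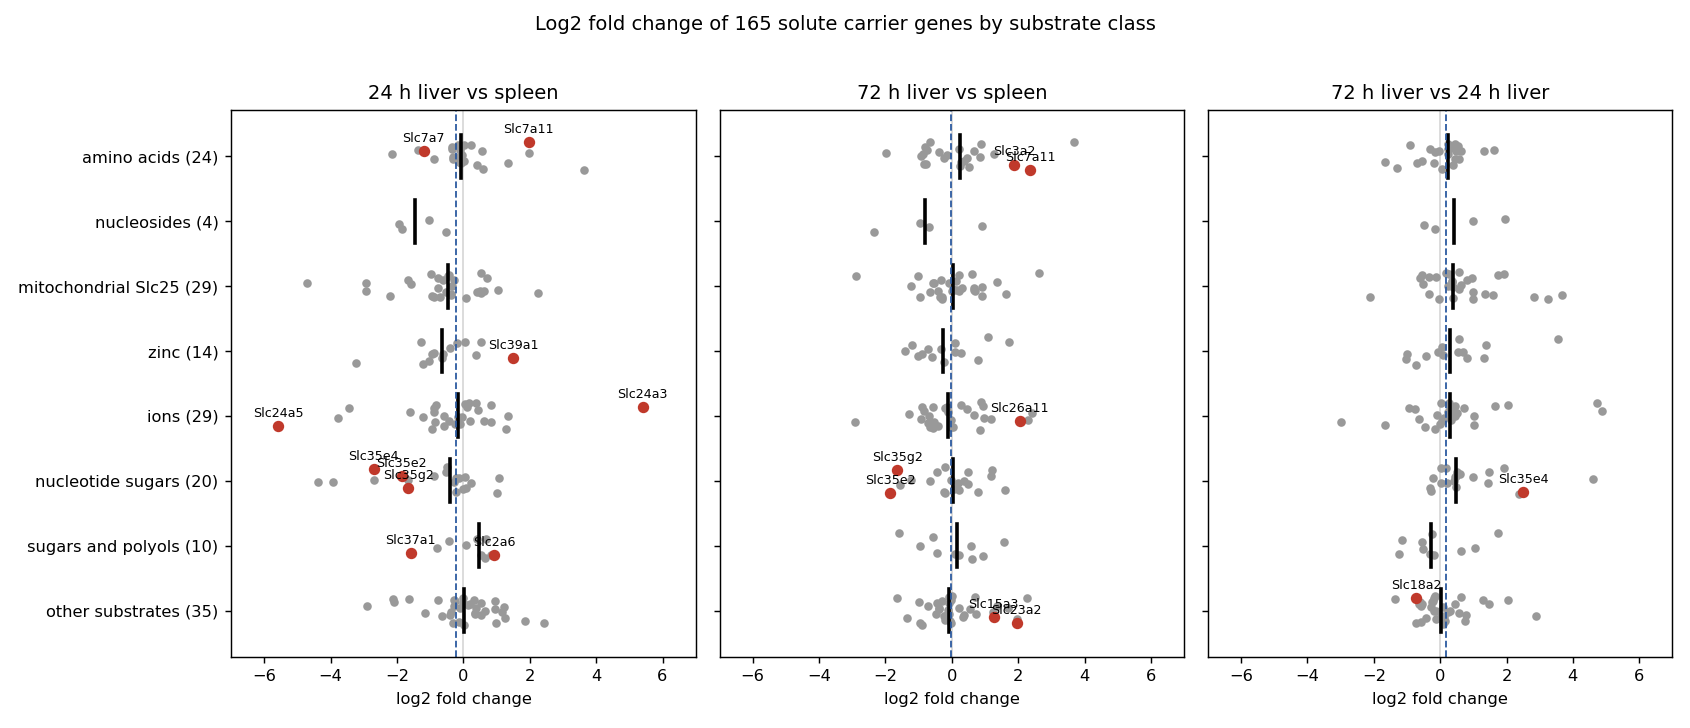
Each point is 1 of 165 solute carrier genes, placed by its log2 fold change (x axis) and its substrate class (y axis, number of genes in brackets) in each of the 3 comparisons. Red points with names were called, black bars are class medians and the dashed line is the median of all genes tested. The points of each class lie on both sides of the dashed line, except the 4 nucleoside carriers at 24 h, which lie below it, and the called genes are spread over the classes, with none among the nucleoside and mitochondrial carriers.

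Among the amino acid carriers, the 2 chains of the cystine and glutamate exchanger had higher group means in the liver. The level of Slc7a11 (ENSMUSG00000027737.10, GRCm38 chr3:49892526-50443614), the light chain that carries the substrates, was 8.35, 8.34 and 14.2 normalized CPM in the 3 spleen libraries. It was 51.1, 34.2, 36.8 and 40.1 normalized CPM at 24 hours and 65.1, 69.1, 70.0, 30.6 and 30.5 normalized CPM at 72 hours. Every liver library lay above every spleen library, and at 72 hours libraries 1 to 3 lay well above libraries 4 and 5. Slc7a11 rose by 1.96 on the log2 scale at 24 hours (standard error, SE, 0.37, edgeR adjusted p = 0.00173) and by 2.36 at 72 hours (SE 0.37, edgeR adjusted p = 0.000271). The call was kept in each of the 12 fits that left out 1 library and in each of the other 13 settings, and the log2 fold change at 72 hours was 2.02 without libraries 2 and 3. No difference between the 2 liver groups was detectable (log2 difference 0.40, SE 0.30, edgeR adjusted p = 0.473).

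The heavy chain Slc3a2 (ENSMUSG00000010095.13, chr19:8706882-8723369), which carries several light chains to the cell surface, had 12.1, 3.26 and 4.18 normalized CPM in the spleen, 6.94, 16.8, 21.9 and 19 at 24 hours and 32.0, 22.5, 42.1, 7.64 and 11.7 at 72 hours. Here the groups overlap, since spleen library 1 lay above 72-hour libraries 4 and 5. Slc3a2 rose at 72 hours (log2 fold change 1.89, SE 0.55, edgeR adjusted p = 0.0442) and did not pass the test at 24 hours (1.34, SE 0.57, edgeR adjusted p = 0.138). The call at 72 hours was lost in 7 of the 12 fits without 1 library, and without 72-hour libraries 2 and 3 the adjusted p was 0.287. The nearest annotated gene on the opposite strand, Snhg1, lies 106 bases from Slc3a2. The hepatocyte genes summed to 22.1 and 32.8 normalized CPM in 72-hour libraries 2 and 3 and to 9.22, 10.4 and 4.54 in libraries 1, 4 and 5; their part in these 72-hour values was not tested.

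The promoter windows of both chains are shown because the genes encode 1 exchanger. Each holds 300 bases, of which the last 50 follow the RefSeq start (build GRCm38.p6), both on the minus strand, at chr3:50443564-50443863 for Slc7a11 and chr19:8713848-8714147 for Slc3a2. Capitals mark matches, on either strand, to TGATGNAA, the core of the C/EBP-ATF element bound by factors of the amino acid response, or to TGANNNNGC. The second is a loose form of the antioxidant response element that leaves all bases between TGA and GC free. It occurs in 41.3% of all promoter windows, so a match does not show such an element.
Slc7a11: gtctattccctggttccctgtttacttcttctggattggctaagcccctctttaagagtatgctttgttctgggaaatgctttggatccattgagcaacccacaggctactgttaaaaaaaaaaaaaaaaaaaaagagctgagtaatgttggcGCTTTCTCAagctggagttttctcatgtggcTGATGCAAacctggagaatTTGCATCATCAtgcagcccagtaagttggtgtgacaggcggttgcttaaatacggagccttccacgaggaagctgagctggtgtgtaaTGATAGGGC
Slc3a2: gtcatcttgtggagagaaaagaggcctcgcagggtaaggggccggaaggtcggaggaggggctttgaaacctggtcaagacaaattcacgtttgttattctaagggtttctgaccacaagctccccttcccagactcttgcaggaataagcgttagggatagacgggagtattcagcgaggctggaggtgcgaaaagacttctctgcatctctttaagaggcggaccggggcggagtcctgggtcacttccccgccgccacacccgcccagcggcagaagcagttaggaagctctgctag
Counted from the first base printed, the Slc7a11 window holds TGATGNAA at bases 185 to 192 and, on the other strand, at bases 204 to 211. It holds TGANNNNGC at bases 154 to 162, 206 to 214 and 292 to 300, and the match at 206 overlaps the one at 204. The Slc3a2 window holds neither. It lies inside the gene span given above, at an internal start, so the outermost annotated start of Slc3a2 was not searched. Of all 32851 promoter windows, 3.97% hold TGATGNAA and 41.3% hold TGANNNNGC, and of the 169 windows that belong to 127 of the members, 2.96% and 52.7% hold them.

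A further light chain went the other way. Slc7a7 (ENSMUSG00000000958.9, chr14:54369442-54417780), which exchanges cationic for neutral amino acids together with Slc3a2, had 26.4, 32.6 and 38.9 normalized CPM in the spleen and 10.7, 7.20, 25.5 and 13.9 at 24 hours, so that the groups were separate but close at 24-hour library 3. It fell by 1.20 on the log2 scale (SE 0.38, edgeR adjusted p = 0.0484), and the call was lost in 9 of the 12 fits without 1 library, with adjusted p up to 0.125. At 72 hours it had 12.1 to 23.6 normalized CPM (log2 fold change -0.77, edgeR adjusted p = 0.254). Slc7a7 shares 232 exon bases with Oxa1l on the opposite strand.

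The amino acid carriers with the most counts per kilobase of exon were Slc43a2, Slc6a6 and Slc36a3. Slc43a2, a carrier of large neutral amino acids, had 88.2 ± 44.4, 134 ± 54.2 and 158 ± 12.3 normalized CPM in the spleen, at 24 hours and at 72 hours (SD, n = 3, 4 and 5). All 72-hour libraries lay above all spleen libraries, of which library 3 reached 139, yet the test was not passed (log2 fold change 0.84 at 72 hours, edgeR adjusted p = 0.13). The taurine carrier Slc6a6 had 71.7 ± 16.5, 65.9 ± 21.1 and 103 ± 25.8 normalized CPM (SD, n = 3, 4 and 5), with edgeR adjusted p = 0.83 and 0.367 against the spleen. Slc36a3, of the proton-coupled amino acid carriers, had 17 ± 2.62, 16.2 ± 9.10 and 22 ± 4.38 normalized CPM (SD, n = 3, 4 and 5). On the opposite strand, Slc43a2 shares 922 exon bases with Gm45606 and Slc6a6 shares 117 with Gm44981. The glutamine carrier Slc38a2, picked after its values were seen like Slc7a5 after it, had 37.6 to 41.8, 30.6 to 43.5 and 39 to 57.8 normalized CPM in the 3 groups, which overlapped. Slc7a5, the large neutral amino acid carrier that also pairs with Slc3a2, had 0 to 6 counts per library, too few to show a difference. Over the 24 members the median log2 fold change was -0.08 at 24 hours and 0.23 at 72 hours, beside -0.23 and -0.02 over all genes, but neither direction was kept in all settings. Over the 13 that share no exon bases with a gene on the opposite strand, the median at 24 hours was 0.35. Over all settings it ran from -0.22 to 0.35. At 72 hours it ran from -0.04, without 72-hour library 2, to 0.42, without spleen library 3. No amino acid carrier was called between the 2 liver groups, where 2 of the 24 had an unadjusted p under 0.05, beside 2616 of the 12488 genes tested.

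**Figure D2:**
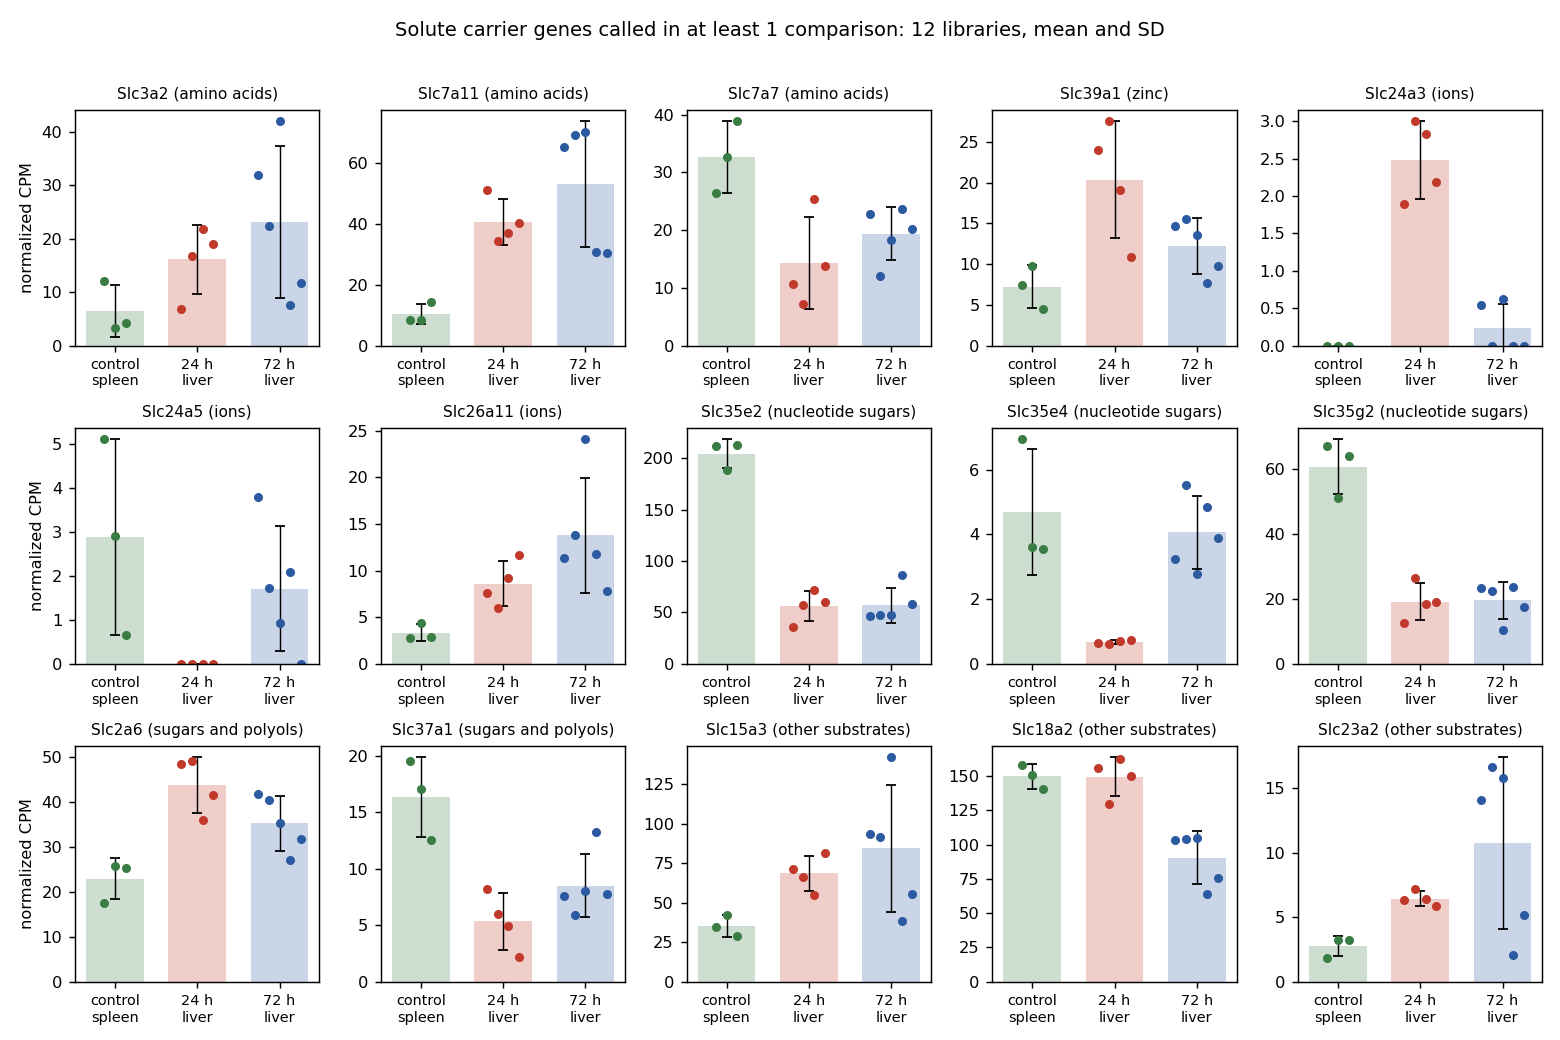
Normalized CPM (y axis) of the 15 solute carrier genes called in at least 1 comparison, in the 3 spleen, 4 liver 24 h and 5 liver 72 h libraries. Points are libraries in replicate order from left to right, bars are group means and error bars are SDs. The spleen points of Slc35e2 and Slc35g2 lie above all liver points, those of Slc7a11 lie below them, and the 72 h points of Slc7a11, Slc3a2, Slc15a3 and Slc23a2 lie higher in libraries 1 to 3 than in libraries 4 and 5.

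No nucleoside carrier was called in any comparison by edgeR, and 1 of the 4 had an unadjusted p under 0.05 in each. Of the 12488 genes tested, 3267, 2134 and 2616 had such a p in the 3 comparisons. Slc28a2, the sodium-coupled carrier of purine nucleosides, had the highest level of the 4 per kilobase. It had 24.1, 28.6 and 8.36 normalized CPM in the spleen, 18.3, 22.2, 7.78 and 7.29 at 24 hours and 10.3, 6.91, 8.05, 13.9 and 26 at 72 hours, so all 3 groups overlapped (log2 fold change -0.53 and -0.68, edgeR adjusted p = 0.537 and 0.531). Slc29a4, an equilibrative carrier of monoamines and adenosine, had 3.71, 3.62 and 3.86 normalized CPM in the spleen, 0.631 to 1.80 at 24 hours and 0 to 1.95 at 72 hours. Its liver libraries, with 0 to 3 counts each, all lay below those of the spleen, with 8 to 12 counts, but the tests were not passed (log2 fold change -1.86 and -2.35, edgeR adjusted p = 0.19 and 0.118). The lysosomal carrier Slc29a3 had 0 to 12 counts and the plasma membrane carrier Slc29a1, the last of the class and named for completeness after its values were seen, had 0 to 8. The median log2 fold changes of the 4 genes, -1.45 and -0.82, therefore rest mostly on genes with few counts, and with edgeR's own filter, which left 1 of the 4 to test, the value at 24 hours was -0.55. The value at 72 hours was -0.52 without spleen library 2. Slc29a1 shares 275 exon bases with Gm17080 on the opposite strand.

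None of the 29 mitochondrial carriers was called by edgeR in any comparison, and at an unadjusted p under 0.05 there were 5 at 24 hours, 2 at 72 hours and 5 between the liver groups. The same limit took in 3267, 2134 and 2616 of the 12488 genes tested. At 24 hours 20 of the 29 (69%) had a fitted change below 0, where 58.7% of all genes did, and their median was -0.46, beside -0.23 over all genes. At 72 hours 14 of 29 lay below 0, with a median of 0.03. Between 72 and 24 hours 21 lay above 0 (72.4%, against 59% of all genes), with a median of 0.39, beside 0.18. These signs rest largely on few counts, since 20 of the 29 averaged fewer than 10 counts, where 44.1% of all genes tested did. Without 24-hour library 2 the medians were -0.90 at 24 hours and 0.88 between the liver groups, and the value at 72 hours ran from -0.08 to 0.23 over the settings. The adenine nucleotide carrier Slc25a5, which exchanges ADP for ATP, had 10.7, 5.80 and 4.82 normalized CPM in the spleen, 3.78, 0.60, 2.83 and 1.46 at 24 hours and 4.15 to 7.59 at 72 hours. Its 24-hour libraries lay below all the others but held 1 to 6 counts each, and the test was not passed (log2 fold change -1.67 at 24 hours, SE 0.61, edgeR adjusted p = 0.0842). The phosphate carrier Slc25a3 had 12 to 13 normalized CPM in the spleen, 5.68, 6.60, 0.707 and 13.1 at 24 hours and 11.4, 29.0, 28.5, 15.3 and 13.6 at 72 hours. Its 2 liver groups overlapped, and their difference did not pass the test (log2 difference 1.60, SE 0.48, edgeR adjusted p = 0.0556). Both were picked after their values were seen, as the mitochondrial carriers of lowest p at 24 hours and between the liver groups.

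The summed level of the mitochondrial carriers went against their median, because 2 of them held most of it. Summed over the 29, the level per kilobase of exon was 157 ± 6.47, 204 ± 9.01 and 171 ± 20.01 normalized CPM in the spleen, at 24 hours and at 72 hours (SD, n = 3, 4 and 5). Of this the oxoglutarate and malate carrier Slc25a11 gave 92.0, 133 and 106, and the glutamate carrier Slc25a18 gave 33, 51.2 and 35.9. Slc25a11 had 173 to 217 normalized CPM in the spleen and 253 to 312 at 24 hours, groups that did not overlap (log2 fold change 0.54, SE 0.22, edgeR adjusted p = 0.127). Slc25a18 had 52.4 to 82.6 and 72.5 to 128 normalized CPM (log2 fold change 0.63, edgeR adjusted p = 0.154). Slc25a11 shares 189 exon bases with Rnf167 and Slc25a18 shares 32 with Atp6v1e1, a subunit of the vacuolar proton pump, both on the opposite strand. The third in level, the calcium-regulated ATP-magnesium and phosphate carrier Slc25a24, had 6.28, 4.01 and 2.7 normalized CPM per kilobase and showed no detectable difference (edgeR adjusted p = 0.445 and 0.143 against the spleen).

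Of the 14 zinc carriers 1 was called. Slc39a1 (ENSMUSG00000052310.9, chr3:90248172-90253612), which imports zinc at the plasma membrane, had 7.42, 9.79 and 4.50 normalized CPM in the spleen and 24.0, 27.6, 19.1 and 10.9 at 24 hours. The groups did not overlap, though 24-hour library 4 came close to spleen library 2. It rose at 24 hours (log2 fold change 1.5, SE 0.43, edgeR adjusted p = 0.0282), and the call was lost in 4 of the 12 fits without 1 library, with adjusted p up to 0.0907 without spleen library 3. At 72 hours it had 14.6, 15.5, 13.6, 7.64 and 9.73 normalized CPM, which overlaps the spleen (log2 fold change 0.78, edgeR adjusted p = 0.348). The difference between its liver groups was not detectable (log2 difference -0.72, SE 0.36, edgeR adjusted p = 0.251).

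The other leading zinc carriers did not pass the test. Slc39a5, another importer, had 13.5 ± 7.81, 14 ± 8.38 and 14.9 ± 5.56 normalized CPM (SD, n = 3, 4 and 5). Slc39a13, which releases zinc from intracellular stores, had 16.6 ± 6.85, 8.92 ± 1.47 and 13.3 ± 2.73, with edgeR adjusted p = 0.157 and 0.754 against the spleen. Among the exporters, Slc30a7, which loads zinc into the Golgi, had 13.4 to 22.8 normalized CPM in the spleen and 2.12 to 12.6 at 24 hours without passing the test (log2 fold change -1.29, edgeR adjusted p = 0.0998); it was picked after its value was seen, as the lowest p left in the class. Slc30a1, the exporter of the plasma membrane, also picked after its values were seen, had 0 to 7 counts. The class median was -0.63 at 24 hours and -0.27 at 72 hours, against -0.23 and -0.02 over all genes, so that the called gene went against its class. Over the 10 zinc carriers that share no exon bases with a gene on the opposite strand, the medians were -0.29 and 0.06. Without 24-hour library 3 the value at 24 hours was -0.98, and in the replicate block the value at 72 hours was -0.51. Of the listed genes that buffer or sense zinc, Mtf1 alone was tested, at 81.6 ± 4.88, 116 ± 37.1 and 125 ± 12.6 normalized CPM (SD, n = 3, 4 and 5; edgeR adjusted p = 0.201 and 0.171), and the metallothioneins Mt2 and Mt3 were at 0 counts in all libraries.

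Of the 29 ion carriers, Slc24a3 rose and Slc24a5 fell at 24 hours, and Slc26a11 rose at 72 hours. Slc26a11 (ENSMUSG00000039908.14, chr11:119355557-119381079), an anion and sulfate carrier, had 2.78, 4.35 and 2.89 normalized CPM in the spleen, 7.57, 6.0, 9.19 and 11.7 at 24 hours and 11.4, 13.8, 24.1, 11.8 and 7.79 at 72 hours. All 9 liver libraries lay above the 3 spleen libraries, with 72-hour library 3 the highest. The log2 fold change was 2.05 at 72 hours (SE 0.47, edgeR adjusted p = 0.00931) and 1.34 at 24 hours, where the test was not passed (SE 0.49, edgeR adjusted p = 0.0905). The call at 72 hours was lost without spleen library 1 (edgeR adjusted p = 0.0647) and without 72-hour libraries 2 and 3 (log2 fold change 1.60, edgeR adjusted p = 0.148). Sgsh, an opposite-strand gene that encodes a lysosomal enzyme, lies 21 bases from Slc26a11.

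Slc24a3 and Slc24a5 are exchangers of sodium for calcium and potassium, and both calls rest on few counts. Slc24a3 had no count in the spleen, 3, 5, 4 and 3 counts at 24 hours and 1, 0, 2, 0 and 0 counts at 72 hours. Against the limit of 3 counts per library that a count of 0 allows, Slc24a3 was at least 2.16-fold higher in 24-hour neutrophils (edgeR adjusted p = 0.0299), and the call was lost in 5 of the 12 fits without 1 library. Slc24a5, which acts in melanosomes, had 11, 8 and 2 counts in the spleen, none in any 24-hour library and 7, 5, 3, 3 and 0 at 72 hours. By the same limit, Slc24a5 was at least 1.44-fold lower in 24-hour neutrophils (edgeR adjusted p = 0.0364), and the call was lost in 6 of the 12 fits without 1 library. Slc24a5 shares 921 exon bases with Myef2 on the opposite strand.

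The ion carriers with the most counts per kilobase did not pass the test. The copper carrier Slc31a2 had 71.0, 92.8 and 114 normalized CPM in the spleen, 109, 79.8, 92.6 and 79.5 at 24 hours and 68.3, 66.3, 52.9, 55.6 and 45.4 at 72 hours. Its 72-hour libraries were the lowest 5 of the 12 (log2 fold change -0.68 against the spleen, edgeR adjusted p = 0.105, and -0.64 against 24 hours, edgeR adjusted p = 0.0996). The sulfate carrier Slc26a1 had 40.2 to 42.7, 42.0 to 114 and 60.3 to 75 normalized CPM in the 3 groups (edgeR adjusted p = 0.071 and 0.197) and shares 141 exon bases with Idua on the opposite strand. The class median was -0.18 at 24 hours and -0.12 at 72 hours, but without spleen library 3 these were 0.01 and 0.02, and without 72-hour library 4 the value at 72 hours was -0.25. Of the listed kinases that regulate cation and chloride cotransport, 3 were tested, and Wnk4 fell at 72 hours, with 25.3 ± 11.2 normalized CPM in the spleen and 4.65 ± 3.65 at 72 hours (SD, n = 3 and 5; log2 fold change -2.51, SE 0.59, edgeR adjusted p = 0.0118). At 72 hours 2.71% of all genes tested were called lower. Wnk4 shares 306 exon bases with Gm11615 on the opposite strand.

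The carriers of nucleotide sugars and their relatives held the decreases with the lowest adjusted p. These proteins load sugar donors into the Golgi and the endoplasmic reticulum, and the substrates of the 3 called here are not well established. Slc35e2 (ENSMUSG00000042202.15, chr4:155601416-155623340) had 212, 188 and 213 normalized CPM in the spleen, 36.0, 57.0, 72.1 and 59.8 at 24 hours and 46.1, 47.7, 47, 86.2 and 58.4 at 72 hours. Every liver library lay under every spleen library, and the 2 liver groups overlapped. The log2 fold change was -1.86 at 24 hours (SE 0.27, edgeR adjusted p = 0.000154) and -1.85 at 72 hours (SE 0.26, edgeR adjusted p = 7.38e-05), with a difference of 0.02 between the liver groups (SE 0.25, edgeR adjusted p = 0.981). Slc35e2 shares 540 exon bases with opposite-strand genes.

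Slc35g2 (ENSMUSG00000070287.3, chr9:100552188-100571090) followed the same course and has no gene on the opposite strand within 26708 bases. It had 67.3, 51.1 and 64.0 normalized CPM in the spleen, 12.6, 26.4, 18.4 and 19 at 24 hours and 23.3, 22.5, 10.5, 23.6 and 17.5 at 72 hours, again with no overlap between spleen and liver. It fell by 1.67 on the log2 scale at 24 hours (SE 0.33, edgeR adjusted p = 0.00225) and by 1.65 at 72 hours (SE 0.30, edgeR adjusted p = 0.00143). Slc35e2 and Slc35g2 kept both calls in each of the 12 fits without 1 library and in each other setting in which they were tested. The 3 spleen libraries ranged over 188 to 213 and 51.1 to 67.3 normalized CPM for Slc35e2 and Slc35g2, while the immature neutrophil genes without Mki67 summed to 4409, 4296 and 660 normalized CPM in them; the part of these markers in the decreases was not tested.

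Slc35e4 (ENSMUSG00000048807.2, chr11:3907021-3914664) was low at 24 hours alone. It had 15, 10 and 11 counts in the spleen, 1 count in each of the 4 libraries at 24 hours, and 6, 16, 9, 7 and 6 counts at 72 hours. Pooled and scaled to library size, the spleen level was 6.77 times that at 24 hours (95% interval 2.43 to 26.2, counting error only), and the level at 72 hours was 6.07 times that at 24 hours (2.21 to 23.2). It fell at 24 hours against the spleen (edgeR adjusted p = 0.0197) and was higher at 72 than at 24 hours (log2 difference 2.51, SE 0.69, edgeR adjusted p = 0.0402). The second call was lost in 11 of the 12 fits without 1 library, and the first without spleen library 1 (edgeR adjusted p = 0.112). The class median was -0.40 at 24 hours and 0.02 at 72 hours, and 17 of the 20 members (85%, against 59% of all genes) had a fitted value above 0 between 72 and 24 hours, with a median of 0.48. Over the settings these medians ran from -0.75 (without 24-hour library 1) to -0.22, from -0.16 to 0.15 and from 0.26 to 0.61. Of the 20 members, 12 averaged fewer than 10 counts.

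Among the carriers of sugars and polyols, 1 rose and 1 fell at 24 hours. Slc2a6 (ENSMUSG00000036067.12, chr2:27021363-27027998), a glucose transporter family member of lysosomes, had 17.6, 25.7 and 25.4 normalized CPM in the spleen, 48.6, 49.2, 36.1 and 41.6 at 24 hours and 41.8, 40.4, 35.3, 27.1 and 31.8 at 72 hours. Every liver library lay above every spleen library. It rose at 24 hours (log2 fold change 0.93, SE 0.29, edgeR adjusted p = 0.0436) and did not pass the test at 72 hours (0.62, edgeR adjusted p = 0.236). The call at 24 hours was lost in 9 of the 12 fits without 1 library, with adjusted p up to 0.19 without spleen library 1.

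Slc37a1 (ENSMUSG00000024036.15, chr17:31286792-31350739), which exchanges glucose 6-phosphate for phosphate at the endoplasmic reticulum, had 19.5, 17 and 12.5 normalized CPM in the spleen, 8.20, 6.0, 4.95 and 2.19 at 24 hours and 5.87 to 13.2 at 72 hours. It fell at 24 hours (log2 fold change -1.59, SE 0.45, edgeR adjusted p = 0.0286), where the groups did not overlap, and the call was lost in 4 of the 12 fits without 1 library, with adjusted p up to 0.118 without spleen library 1. Slc37a1 shares 964 exon bases with a gene on the opposite strand. The class median was 0.48 at 24 hours and 0.16 at 72 hours, with 0.04 at 24 hours without 24-hour library 4 and a range of -0.14 to 0.32 at 72 hours over the settings.

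Of the 35 members with other substrates, Slc15a3 and Slc23a2 rose at 72 hours. The symbol rule also placed here Slc9a3r1 and Slc4a1ap, a regulator and an adaptor protein named after carriers rather than carriers. Neither was called, and Slc9a3r1 is also on the list of carrier partners. Slc15a3 (ENSMUSG00000024737.2, chr19:10839727-10859362), which moves peptides and histidine out of lysosomes, had 34.8, 42.4 and 28.9 normalized CPM in the spleen, 71.3, 66.6, 55.2 and 81.7 at 24 hours and 93.8, 91.9, 142, 38.2 and 55.8 at 72 hours. The 24-hour libraries lay above the spleen, whereas 72-hour library 4 lay within its range. The log2 fold change was 1.26 at 72 hours (SE 0.34, edgeR adjusted p = 0.0269) and 0.96 at 24 hours (SE 0.35, edgeR adjusted p = 0.0832). Without 72-hour libraries 2 and 3 it was 0.83 at 72 hours (edgeR adjusted p = 0.268), and the call was lost in 6 of the 12 fits without 1 library. Slc15a3 shares 1541 exon bases with Tmem132a on the opposite strand.

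Slc23a2 (ENSMUSG00000027340.15, chr2:132052496-132145108), the sodium-coupled carrier of vitamin C, had 1.86, 3.26 and 3.22 normalized CPM in the spleen, 6.31, 7.20, 6.36 and 5.84 at 24 hours and 14.1, 16.6, 15.8, 2.08 and 5.19 at 72 hours. Libraries 1 to 3 at 72 hours lay above all the others, and library 4 lay within the spleen. The log2 fold change at 72 hours was 1.95 (SE 0.57, edgeR adjusted p = 0.0474), and the call was lost in 10 of the 12 fits without 1 library, and without libraries 2 and 3 it was 1.35 (edgeR adjusted p = 0.433). At 24 hours the groups did not overlap but the test was not passed (log2 fold change 1.18, edgeR adjusted p = 0.223).

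Slc18a2 (ENSMUSG00000025094.7, chr19:59260896-59296012), which loads monoamines into vesicles, was called only between the liver groups. It had 158, 150 and 141 normalized CPM in the spleen, 156, 130, 163 and 150 at 24 hours and 103, 104, 105, 63.9 and 75.3 at 72 hours. All 72-hour libraries lay below all the others. The log2 difference between 72 and 24 hours was -0.72 (SE 0.21, edgeR adjusted p = 0.0471), the log2 fold change between 72 hours and the spleen was also -0.72 (edgeR adjusted p = 0.0584), and the call was lost in 11 of the 12 fits without 1 library. Slc18a2 shares 111 exon bases with Gm29261 on the opposite strand.

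The level of the solute carriers per kilobase of exon spanned from 0.0370 to 112 normalized CPM over all libraries, with a median of 0.775. Slc25a11 was the highest of all. Slc22a20, an organic anion carrier known from olfactory tissue, followed with 99.8 and had 200 ± 20.3, 228 ± 52.6 and 152 ± 40.1 normalized CPM (SD, n = 3, 4 and 5; edgeR adjusted p = 0.693 and 0.447 against the spleen). The bile acid carrier Slc10a1, known as a gene of hepatocytes, had 35.7 to 44.5 normalized CPM in the spleen, 27.1 to 63.6 at 24 hours and 17.4 to 50.8 at 72 hours, so that the 3 groups overlapped (log2 fold change 0.14 and -0.12, edgeR adjusted p = 0.83 and 0.921). Slc2a12, a glucose carrier that shares 407 exon bases with Tbpl1 on the opposite strand, had 86.8 ± 10.9, 135 ± 29.1 and 92.7 ± 15 (SD, n = 3, 4 and 5; edgeR adjusted p = 0.106 and 0.918). These 3 were picked after their levels were seen. Summed per kilobase, the class of nucleotide sugar carriers, which takes in every Slc35 member, had 95.1 ± 9.44 in the spleen, 44.8 ± 4.80 at 24 hours and 49.6 ± 7.28 at 72 hours (SD, n = 3, 4 and 5). Slc35e2 and Slc35g2 held that decrease, since the other 18 summed to 25.8 ± 1.97, 24.3 ± 2.36 and 28.6 ± 4.11. The amino acid carriers had 65.0 ± 8.81, 62.5 ± 14.2 and 75.3 ± 8.40 (SD, n = 3, 4 and 5). The sums for zinc were 17.7 ± 4.43, 19.7 ± 5.02 and 18.6 ± 1.80, and those for ions 91.8 ± 12.8, 97.3 ± 12.6 and 83.7 ± 4.54, and the group means of the zinc sums differed by less than 1 SD of the 24-hour libraries.

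**Figure D3:**
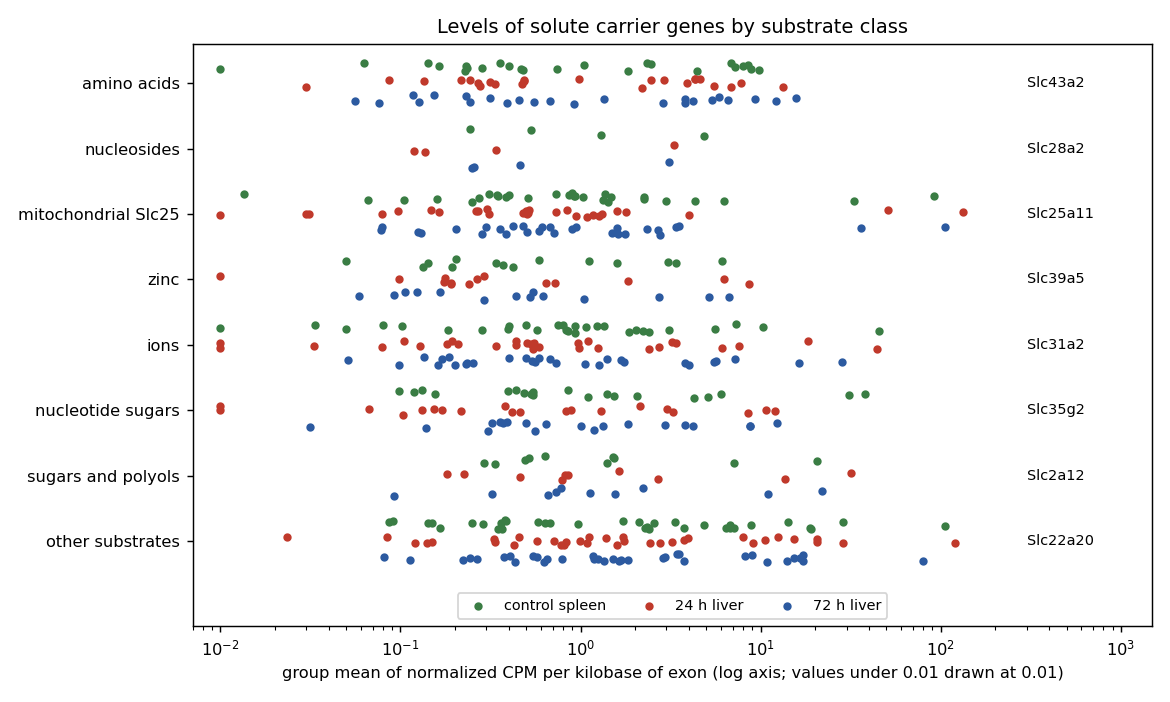
Group means of normalized CPM per kilobase of exon (x axis, log scale, values under 0.01 drawn at 0.01) for the 165 solute carrier genes, by substrate class (y axis). Each gene has 1 point for each group, in the colour of the group, and the gene of the highest mean over all libraries is named at the right of its class. Slc25a11 and Slc22a20 lie near 100, while most genes lie under 10.

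Genes that work with the carriers were followed as lists. None of the 20 tested genes of amino acid sensing was called by edgeR in any comparison. Atf4, which drives the amino acid response, had 9.64 ± 1.92, 9.46 ± 2.88 and 17.8 ± 8.18 normalized CPM (SD, n = 3, 4 and 5; edgeR adjusted p = 0.967 and 0.246 against the spleen). Of the 6 tested carrier partners, Txnip, which restrains glucose uptake by removing glucose carriers from the surface, was higher at 72 than at 24 hours, at 185 ± 27.3 (SD, n = 5) against 102 ± 18.6 (SD, n = 4) normalized CPM (log2 difference 0.86, edgeR adjusted p = 0.0194). Its spleen level was 160 ± 11.7 (SD, n = 3), and it shares 606 exon bases with Gm15441 on the opposite strand. Between the liver groups 1.65% of all genes tested were called higher.

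Of 25 tested carriers without an Slc symbol, 3 were called at 24 hours (12%, beside 9.75% of all genes), and 1 in each of the other comparisons (4%, beside 5.33% and 4.49%). Spns2, which exports sphingosine 1-phosphate, had 6.11 to 8.35 normalized CPM in the spleen, 0 to 0.60 at 24 hours and 0 to 0.928 at 72 hours, and fell in both liver groups (edgeR adjusted p = 0.00596 and 0.00304). It shares 131 exon bases with Mybbp1a on the opposite strand. Sfxn5, a mitochondrial carrier of the sideroflexins, rose at 24 hours, with 34.5 ± 8.57 normalized CPM in the spleen and 76.5 ± 21.0 at 24 hours (SD, n = 3 and 4; log2 fold change 1.14, edgeR adjusted p = 0.0143). The lysosomal membrane protein Cln3 rose at 24 hours, with 2688 ± 233 normalized CPM in the spleen and 5562 ± 612 at 24 hours (SD, n = 3 and 4; log2 fold change 1.05, edgeR adjusted p = 0.000737) and was lower at 72 than at 24 hours (log2 difference -0.64, edgeR adjusted p = 0.0208), but it shares 442 exon bases with Apobr on the opposite strand.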

How the data were processed

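RNA of sorted neutrophils was sequenced in 12 libraries. The authors aligned the reads with STAR 2.7.9a (submitters' processing notes) to GRCm38 and deposited 1 table of raw counts per gene, made with HTSeq-count. Its 5 summary lines, which hold reads on no gene, ambiguous reads and unaligned reads, entered neither library sizes nor tests (0 columns lacked a sample).

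Gene IDs were matched without their version to GENCODE M21, which gave 48349 of 48709 genes a biotype, position and exon length. Genes with more than 1 CPM in at least 3 libraries were tested in 1 fit of all 12 libraries with edgeR 4.0.16 (R 4.3.3; TMM factors, glmQLFit, glmQLFTest, Benjamini-Hochberg adjustment over 12488 genes). Normalized CPM are CPM on TMM-scaled library sizes. Nothing in the labels says that libraries of a group came from separate animals, so p-values measure the spread between these libraries. No 2 libraries of a group agreed within sampling noise (chi-square per degree of freedom at least 2.47). The self-test on simulated counts used the same fit.

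The members, substrate classes and lists were chosen with earlier results of these data known. All called members were named, with values per library, and in the 5 main classes the 3 highest per kilobase (1 of these is not reported here); others are marked as picked after their values were seen. The lists were amino acid sensing, zinc buffering, cation and chloride cotransport kinases, carrier partners and carriers without an Slc symbol, and markers of mature and immature neutrophils, hepatocytes, macrophages, B, T, erythroid and endothelial cells. Promoters are from RefSeq (GRCm38.p6). Alternatives were DESeq2 1.42.0, limma-voom (limma 3.58.1), other scalings, filters and fold limits, fits of 2 groups, a replicate block, genes that share no exon bases with an opposite-strand gene and leaving out libraries.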

Additional observations from a re-analysis of the deposited data

Results flagged for a closer look

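Of 76 groups of 4 or 5 libraries examined for the named carriers, 2 held a library far from the others, and chance flags about 1 in 20. Slc29a4 stood at 1.80 normalized CPM in 24-hour library 2, where the other 3 lay from 0.631 to 0.729, which is 3 counts against 1 count in each of the others. Slc29a1 stood at 2.19 normalized CPM (3 counts) in 24-hour library 4 and at 0 in the other 3. The changes against the spleen differed between the time points, by the direct test of 72-hour against 24-hour neutrophils, for Slc35e4 (log2 difference 2.51, edgeR adjusted p = 0.0402) and Slc18a2 (log2 difference -0.72, edgeR adjusted p = 0.0471).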

How the results depend on the processing

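No fitted change of a called carrier reversed under any setting. The 10, 7 and 2 called carriers (24 hours and 72 hours against the spleen, then 72 against 24 hours) ranged from 3 to 12, 4 to 8 and 0 to 3 when 1 library was left out, lowest without spleen library 1. With DESeq2's Wald test 11 were called at 72 hours and 5 between the liver groups. Another setting kept only the genes that share no exon bases with a gene on the opposite strand. There 111 carriers were tested among 7485 genes, and 6 were called at 24 hours and 0 between the liver groups. Between the liver groups no filter on low values gave 1, a log2 limit of 1 gave 1 and the 2 groups alone gave 0. After the data were seen, 72-hour libraries 2 and 3 (few unaligned reads) were left out, which gave 3 at 72 hours and 0 between the liver groups, and 72-hour libraries 1 to 3 alone gave 4 between the liver groups. The cause of these changes was not tested. The replicate block called 9, 7 and 1. The share of all genes called in each of these settings is not given here, so the counts cannot be read as particular to the carriers. Same-numbered libraries correlated from -0.12 to 0.13, with 1 of 10 pairs over 0.1, so the numbers were not taken as pairs. Upper-quartile scaling moved the median of all genes at 24 hours from -0.23 to -0.15. Depth limits the 91 carriers that average under 10 counts.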

Other observations

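Of 11 macrophage genes 4 were tested and none was called by edgeR, with summed levels of 105 to 164, 140 to 212 and 127 to 194 normalized CPM in the spleen, at 24 hours and at 72 hours, and C1qa and Clec4f, markers of tissue macrophages and Kupffer cells, were at 0 counts in every library. No tested gene of the B cell, T cell, erythroid or endothelial lists was called either, and Cd3e, Cd2, Hbb-bs, Hba-a1, Cdh5 and Kdr were at 0 counts throughout. Of the hepatocyte list 4 genes were tested, and Apoa2 was called higher at 24 hours, where 5.35% of all genes tested were called higher. The median log2 fold changes of these 4 genes, 2.04 at 24 hours and 4.54 at 72 hours, rest on genes near 0 in the spleen and do not measure a size. The spleen means were 0 normalized CPM for Fgb and Ahsg, 0.12 for albumin (Alb) and 3.90 for Apoa2. Alb had 0 to 2 counts in 10 libraries and 13 and 33 counts in 72-hour libraries 2 and 3. Of 12 mature neutrophil genes 3 were called lower at 24 hours and 5 at 72 hours against the spleen, beside 4.4% and 2.71% of all genes tested.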
